A study of Mus musculus with 11 samples.

Results

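The satellite cell and myoblast fusion genes described here are 10 mouse genes chosen by name: the satellite cell transcription factor Pax7, the receptors Met and Tnfrsf12a, the co-receptor Sdc4, the adhesion molecules Itga7, Vcam1 and Cd34, the cadherins Cdh15 and Cdh2, and the fusion protein gene Mymk. All probe sets whose annotation gives exactly 1 of these symbols were taken, which gave 17 of the 45101 probe sets on the array. Of these, 16 passed the filter on low values (signal above the array's own median on at least 2 of the 11 arrays), so all 10 genes were among the 12214 genes tested. Mymk passed the filter through the 3 denervated control arrays alone, so it had to differ in that group. A gene is represented below by its tested probe set with the highest mean log2 signal, and the others are given beside it.

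RNA of the tibialis anterior, a fast muscle at the front of the lower leg, was hybridised to 11 Affymetrix arrays in 4 groups. Control mice had 1 floxed and 1 null copy of the gene for the transcription factor Runx1 (runx1 f/-), and the mutant mice carried MCK::cre in addition. Every array therefore comes from a mouse with a null Runx1 allele. The groups were innervated control (n = 3), control denervated for 3 days (n = 3), innervated MCK::cre (n = 2) and MCK::cre denervated for 3 days (n = 3). The MCK promoter is that of muscle creatine kinase, which is active in differentiated fibres, so the transgene is not designed to delete Runx1 in satellite cells, and an effect of Cre itself cannot be told apart from one of the deletion. The labels give no age, and whether the arrays of a group stand for different mice is not stated, so p-values measure only the spread between these samples. The note on the array denervated control 3 gives 5 days in place of the 3 in its title, and results are given without it too.

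Satellite cells are the stem cells of muscle, which lie between the fibre membrane and its basal lamina and are marked by Pax7. When activated they divide as myoblasts, express the myogenic factors, adhere to each other and to fibres through cadherins and integrins, and fuse. Fusion needs the membrane protein myomaker, encoded by Mymk, and its small partner myomixer, encoded by Mymx. Several of the 10 genes are also expressed outside satellite cells: Cd34 and Vcam1 in vessels and connective tissue cells, Itga7 in fibres, and Cdh2 in nerve and glia. In RNA of whole muscle, fewer cells of a type and less RNA per cell cannot be told apart.

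The muscle markers Acta1 and Ckm lay between signals of 143030 and 265266 on all 11 arrays, and no gene of any marker list was at 0. Denervation was visible in the same arrays through the myogenic factor Myog (835 to 1647 on innervated, 60644 to 97362 on denervated arrays). Runx1 itself, on its brightest probe set, read 179 to 519 on innervated control, 23499 to 25898 on denervated control, 288 to 395 on innervated MCK::cre and 20403 to 23185 on denervated MCK::cre arrays. Where that probe set lies relative to the deleted part is not known here, so it does not check the deletion. The signals of the trp control probe sets, which match no mouse RNA, ran from 13.8 to 440 and serve below as the range of background. Centring the arrays on the hybridisation spike-in RNAs moved the median change of all genes from -0.01 to 0.81 with denervation of control muscle and to 0.47 in MCK::cre muscle. It turned 3892 rises and 3778 falls among all probe sets in control muscle into 14582 rises and 737 falls. The median genotype difference in denervated muscle moved from 0.01 to -0.36. Median scaling moved the median denervation change in MCK::cre muscle to 0.30. Changes below are those at the deposited scaling, where the median gene changes by almost 0.

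Denervation of control muscle raised 6 of the 10 genes and lowered 1, where 18.0% of all tested genes rose and 16.4% fell (limma, adjusted p below 0.05). Tnfrsf12a, Mymk, Sdc4, Cdh15, Cdh2 and Itga7 rose, in order of size, and Cd34 fell. Mymk counts among them though it passed the filter on low values through the denervated control arrays alone. Pax7, Met and Vcam1 did not pass. Without denervated control 3, the array with the 5-day note, the changes of Tnfrsf12a, Sdc4 and Cdh15 were 4.06, 2.22 and 0.95 (log2, limma adjusted p = 2.77e-06, 0.000175 and 0.00167), and 6 of the 7 calls remained. Cdh2 was the call that was lost. In MCK::cre muscle 3 genes rose (Tnfrsf12a, Sdc4 and Cdh15) and 2 fell (Cd34 and Itga7), against 16.7% and 13.8% of all genes. The median log2 change of the 10 genes was 0.68 in control and 0.01 in MCK::cre muscle, and that of all tested genes was -0.01 in both. Both comparisons are read from their own control arrays, and the difference between them is the interaction given further on.

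**Figure D1:**
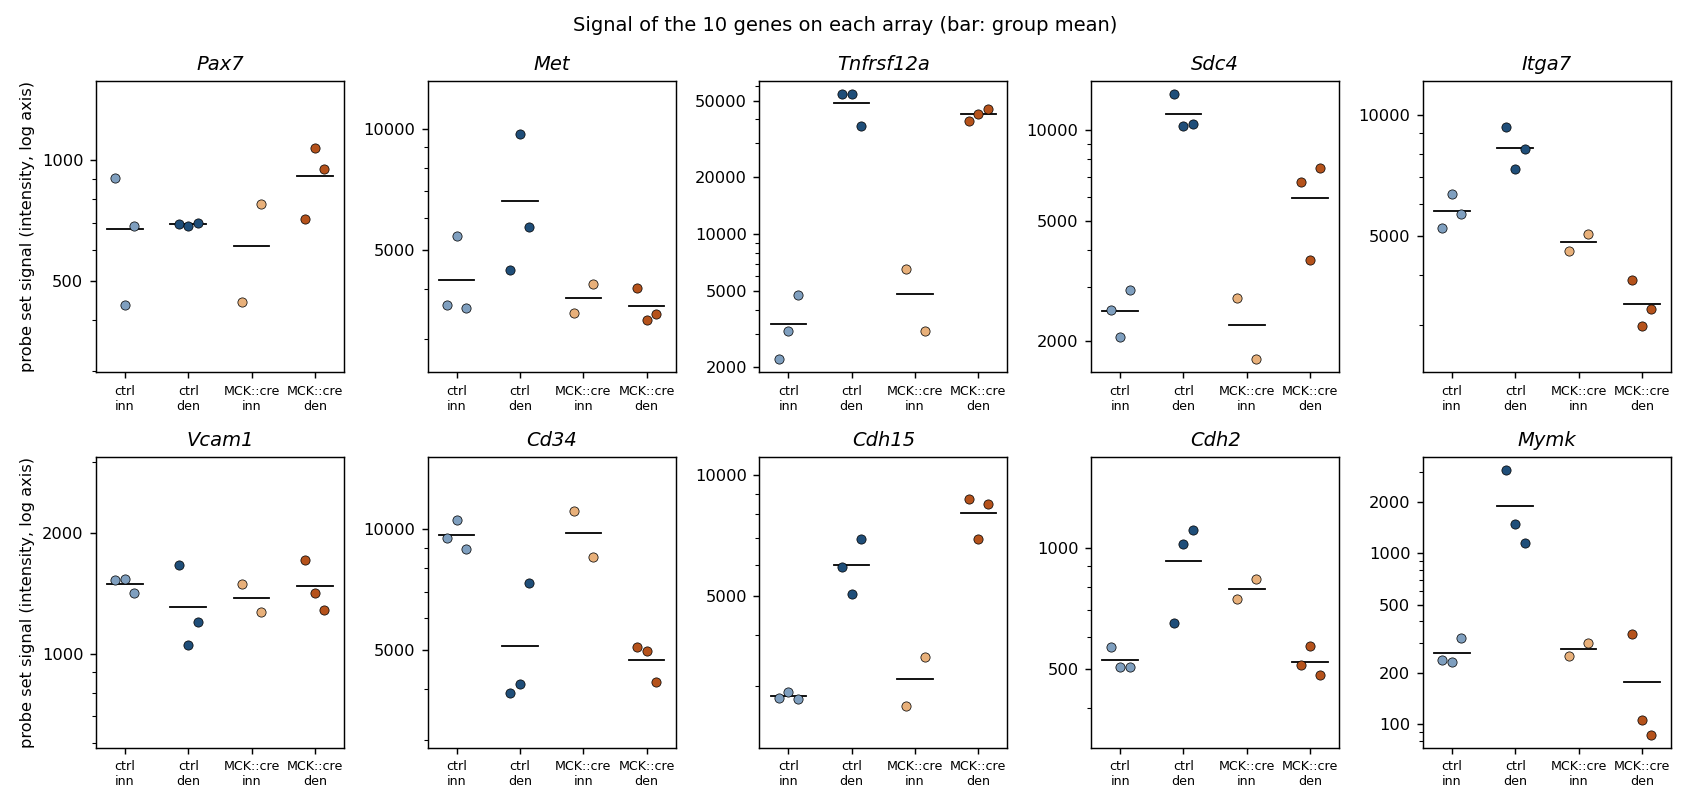
Probe set signal (intensity, logarithmic axis) of the representative probe set of each of the 10 genes on all 11 arrays, in innervated (inn) and denervated (den) control (ctrl) and MCK::cre muscle; points are arrays and bars are group means. Tnfrsf12a, Sdc4 and Cdh15 are higher and Cd34 is lower on the denervated arrays of each genotype, whereas Mymk is high on the 3 denervated control arrays only (1141 to 3067 against 87.3 to 338 on the other 8).

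**Figure D2:**
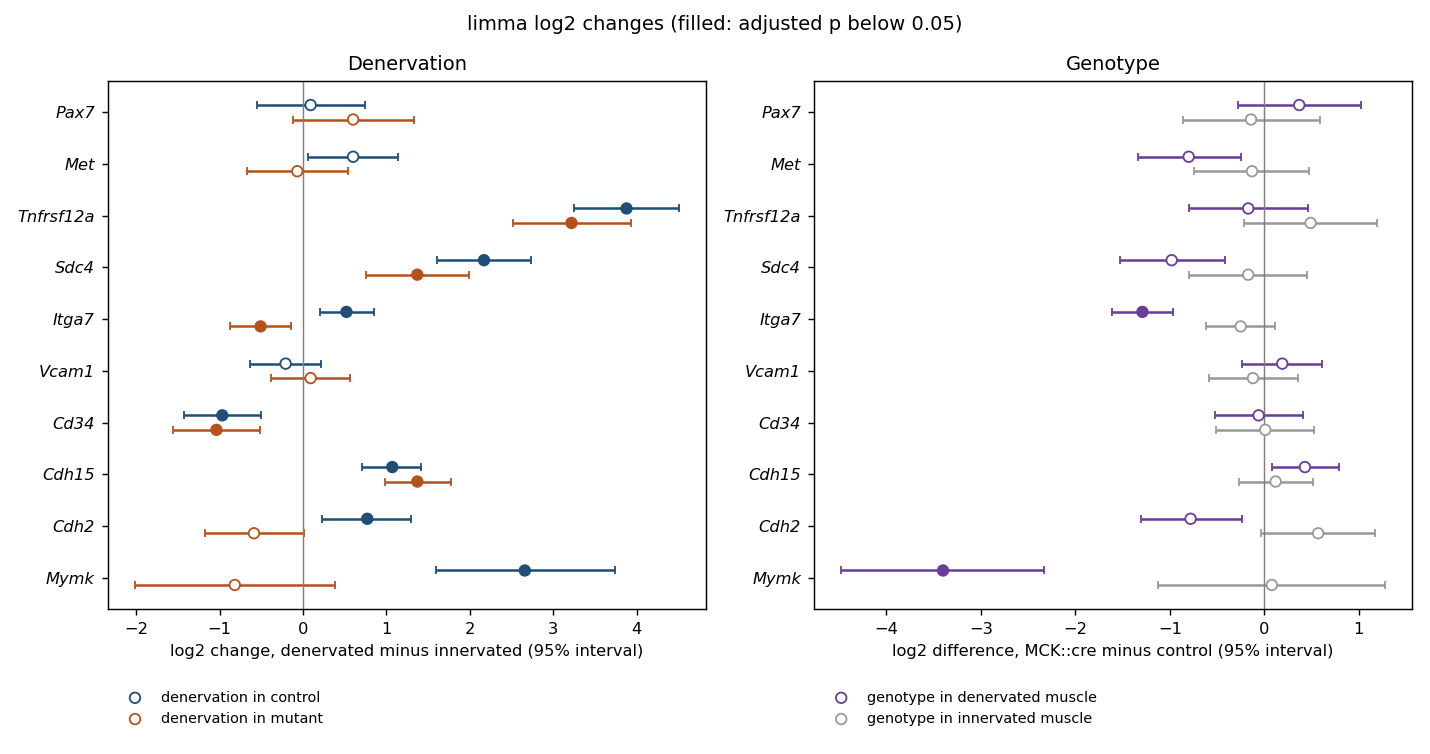
Log2 changes with 95% intervals from limma for the 10 genes; the left panel gives the change with denervation for each genotype (mutant is MCK::cre), the right panel the difference of MCK::cre from control for each state of innervation. Filled points passed an adjusted p of 0.05: 7 genes for denervation in control, 5 in MCK::cre, and Itga7 and Mymk between genotypes in denervated muscle.

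Pax7, the paired-box factor that marks satellite cells, did not pass in any comparison. Its tested probe set (1444596_at) read 905, 437 and 688 on the innervated control arrays and 696, 685 and 700 on the denervated control arrays. It read 445 and 777 on innervated and 715, 1073 and 954 on denervated MCK::cre arrays. The denervated control arrays lay within the range of the innervated ones, and the denervated MCK::cre arrays lay above both denervated and innervated control means. The log2 change was 0.09 (95% interval -0.55 to 0.74, limma adjusted p = 0.848) in control and 0.60 (-0.12 to 1.33, limma adjusted p = 0.208) in MCK::cre muscle. With spike-in centring both passed, at 0.90 (limma adjusted p = 0.038) and 1.07 (limma adjusted p = 0.048). A second Pax7 probe set (1452510_at) lay below the array median on every array and was not tested. It read 257 to 391 in innervated control, 150 to 224 in denervated control and 344 to 478 in MCK::cre muscle, and every group mean was within the range of background.

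Met, the receptor tyrosine kinase for hepatocyte growth factor, read 3656, 5410 and 3598 on innervated and 4455, 9741 and 5705 on denervated control arrays. On MCK::cre arrays it read 3483 and 4109 innervated and 4034, 3359 and 3476 denervated. The control groups overlapped, and the array denervated control 2 stood apart from the other 10. The change in control muscle, 0.60 ± 0.25 (log2, SE), did not pass (limma adjusted p = 0.0925). It passed with the replicate number as a block in the 6 control arrays (0.60, limma adjusted p = 0.0153), without denervated control 1 (0.84, limma adjusted p = 0.0261) and without innervated control 2 (0.79, limma adjusted p = 0.0328). With spike-in centring, where the median of all genes was 0.81, it passed too (1.42, limma adjusted p = 0.000184). In MCK::cre muscle the change was -0.07 (95% interval -0.67 to 0.54, limma adjusted p = 0.884). The other Met probe set (1422990_at) changed by 0.32 in control and -0.76 in MCK::cre muscle, and neither passed.

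Tnfrsf12a, the receptor known as Fn14 that binds the cytokine TWEAK, rose more than any other of the 10 genes. Its representative probe set (1418572_x_at) read 2218, 3096 and 4815 on innervated and 53920, 54023 and 37031 on denervated control arrays. On MCK::cre arrays it read 6577 and 3094 innervated and 39225, 42433 and 45389 denervated. Every denervated array was at 37031 or above and every innervated array at 6577 or below, in both genotypes. The rise was 14.8-fold in control (log2 3.88 ± 0.29, SE, limma adjusted p = 7.35e-07) and 9.34-fold in MCK::cre muscle (log2 3.22 ± 0.33, SE, limma adjusted p = 1.39e-05). The second probe set (1418571_at) read 1996 to 5186 on innervated and 35912 to 63057 on denervated control arrays (limma adjusted p = 3.1e-06), and rose 11.9-fold in MCK::cre muscle (limma adjusted p = 2.9e-05). Genotypes differed by -0.17 in denervated muscle (95% interval -0.80 to 0.46, limma adjusted p = 0.903).

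Sdc4, a heparan sulphate proteoglycan that serves as co-receptor for growth factors, gave different results on its 2 probe sets. The brighter one (1448793_a_at) read 2526, 2059 and 2948 on innervated and 13124, 10313 and 10455 on denervated control arrays. It read 2778 and 1740 on innervated and 6698, 3704 and 7453 on denervated MCK::cre arrays. Denervated arrays lay above innervated ones in each genotype, and all 3 denervated MCK::cre arrays lay below all 3 denervated control arrays. The rise was 4.50-fold in control (log2 2.17 ± 0.26, SE, limma adjusted p = 3.65e-05) and 2.58-fold in MCK::cre muscle (log2 1.37 ± 0.29, SE, limma adjusted p = 0.00362). The rise in MCK::cre muscle did not pass without innervated MCK::cre 2 (1.03, limma adjusted p = 0.0622). The dimmer probe set (1417654_at) changed by 0.38 in control and 0.15 in MCK::cre muscle (limma adjusted p = 0.35 and 0.758), with overlapping arrays.

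Cdh15 encodes M-cadherin, the cadherin of satellite cells and myoblasts. It read 2794, 2899 and 2779 on innervated and 5924, 5064 and 6935 on denervated control arrays, and 2675 and 3541 on innervated and 8739, 6926 and 8467 on denervated MCK::cre arrays. No denervated array overlapped with an innervated one. The rise was 2.09-fold in control (log2 1.07 ± 0.16, SE, limma adjusted p = 0.000294) and 2.59-fold in MCK::cre muscle (log2 1.37 ± 0.18, SE, limma adjusted p = 0.000126). Between genotypes in denervated muscle the difference was 0.43 (95% interval 0.08 to 0.79, limma adjusted p = 0.297).

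Tnfrsf12a, Sdc4 and Cdh15 rose in both genotypes, so the sequence before their start sites is shown. RefSeq windows (GRCm38.p6) were found for 6 of the 10 genes, and the 250 bases before the start are given 5′ to 3′ on the gene's strand. They lie at chr17:23677450-23677699 (minus strand) for Tnfrsf12a, chr2:164443189-164443438 (minus strand) for Sdc4 and chr8:122848124-122848373 (plus strand) for Cdh15. Capitals mark matches to the E-box CANNTG, a pattern that reads the same on both strands. It covers the letters bound by myogenic factors of the MyoD family and is not particular to them.
Tnfrsf12a: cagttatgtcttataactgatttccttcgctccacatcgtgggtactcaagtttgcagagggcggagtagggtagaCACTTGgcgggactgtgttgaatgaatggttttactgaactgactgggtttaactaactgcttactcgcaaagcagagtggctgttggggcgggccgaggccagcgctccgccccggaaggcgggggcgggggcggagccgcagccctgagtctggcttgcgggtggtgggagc
Sdc4: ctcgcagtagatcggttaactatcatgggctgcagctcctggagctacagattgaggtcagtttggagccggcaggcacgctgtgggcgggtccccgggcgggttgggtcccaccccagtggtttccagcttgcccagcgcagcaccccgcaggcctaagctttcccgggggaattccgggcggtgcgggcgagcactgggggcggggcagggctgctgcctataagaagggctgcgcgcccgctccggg
Cdh15: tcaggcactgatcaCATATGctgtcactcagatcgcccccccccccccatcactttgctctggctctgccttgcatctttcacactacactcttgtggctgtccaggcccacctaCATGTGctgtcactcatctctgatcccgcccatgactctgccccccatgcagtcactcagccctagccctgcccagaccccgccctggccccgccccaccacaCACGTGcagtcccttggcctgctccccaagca
Cdh15 held 3 E-boxes, 27, 130 and 231 bases before the start, Tnfrsf12a held 1 at 169 bases, and Sdc4 held 0. Of all 32851 windows of this length, 66.2% held at least 1 E-box and 12.2% held 3 or more. The RUNX letters TGTGGT, searched on both strands, were found in the Cdh15 window and not in the other 2, and 4614 of the 32851 windows held them. TGCGGT and the MEF2 site were in none of the 3 windows, against 5.1% and 2.92% of all windows. A match of letters is not evidence of binding.

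Cd34, a sialomucin of quiescent satellite cells, endothelium and mesenchymal progenitors, was lower in denervated muscle of both genotypes. It read 9488, 10553 and 8909 on innervated and 3913, 4132 and 7335 on denervated control arrays. On MCK::cre arrays it read 11077 and 8530 innervated and 5093, 4966 and 4169 denervated. Denervated arrays lay below innervated ones throughout, and the array with the 5-day note was the highest of the denervated arrays. Cd34 was 1.96-fold lower in control (log2 -0.97 ± 0.22, SE, limma adjusted p = 0.00412) and 2.05-fold lower in MCK::cre muscle (log2 -1.04 ± 0.24, SE, limma adjusted p = 0.00651). Without denervated control 3 the change in control was -1.26 (limma adjusted p = 0.000163). The fall in MCK::cre muscle did not pass without innervated MCK::cre 1 (-0.85, limma adjusted p = 0.0784) or with median scaling (-0.73, limma adjusted p = 0.065), and with spike-in centring neither fall passed (-0.15 in control and -0.56 in MCK::cre muscle).

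Cells other than satellite cells also carry Cd34, and their markers are given beside it, where 16.4% of all genes fell in control and 13.8% in MCK::cre muscle. Of 14 endothelial markers, 7 fell and 7 did not pass in control muscle, and 5 fell in MCK::cre muscle. Their summed signal ran from 64500 to 72645 on innervated and from 43693 to 49348 on denervated control arrays. In MCK::cre muscle it ran from 68536 to 69591 and from 47326 to 51226. Pecam1, an endothelial adhesion molecule, was 1.96-fold lower in control muscle (limma adjusted p = 0.000583), and Tie1, an endothelial receptor, 1.70-fold lower (limma adjusted p = 0.00142). With spike-in centring these were -0.15 and 0.05 (log2) and did not pass. Of 11 fibroblast and fibro-adipogenic markers, 2 fell in each genotype, a share near that of all genes, with summed signals of 322238 to 400032 and 244636 to 331577 in innervated and denervated control muscle and 411906 to 455565 and 273059 to 371823 in MCK::cre muscle. Of 10 pericyte and smooth muscle markers 7 fell in control and 6 in MCK::cre muscle. Their sums were 292890 to 344676 and 225117 to 250260 in control, and 300790 to 313439 and 225747 to 240512 in MCK::cre muscle. The list holds the desmin gene Des, which muscle fibres also express, so these sums do not stand for pericytes and smooth muscle alone. Myh11, the smooth muscle myosin, was 2.20-fold lower in control muscle (limma adjusted p = 8.01e-05; -0.32 with spike-in centring, limma adjusted p = 0.149). The part of these cells in the change of Cd34 was not tested.

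Vcam1, the ligand of the integrin Itga4 with Itgb1, did not pass in any comparison on any of its 3 probe sets. The representative probe set (1448162_at) read 1525, 1530 and 1413 on innervated and 1666, 1052 and 1202 on denervated control arrays, and 1487 and 1266 on innervated and 1713, 1412 and 1286 on denervated MCK::cre arrays. All 4 groups overlapped. The change was -0.21 in control (95% interval -0.64 to 0.21, limma adjusted p = 0.464) and 0.09 in MCK::cre muscle (-0.39 to 0.56, limma adjusted p = 0.801). With spike-in centring it turned to 0.60 in control muscle (limma adjusted p = 0.0499). The dimmest probe set (1451314_a_at) read between 83.5 and 704, with the array numbered 3 lowest in each group that has 3. Its group means, other than that of denervated control muscle, lay within the range of background.

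Itga7, the laminin-binding integrin alpha chain of fibres and satellite cells, moved in opposite directions in the 2 genotypes. It read 5246, 6350 and 5679 on innervated and 9313, 7350 and 8216 on denervated control arrays. On MCK::cre arrays it read 4592 and 5049 innervated and 3882, 2988 and 3288 denervated. Denervated arrays lay wholly above innervated ones in control and wholly below them in MCK::cre muscle. Itga7 rose 1.44-fold in control (log2 0.52 ± 0.15, SE, limma adjusted p = 0.0185) and was 1.43-fold lower in denervated MCK::cre muscle (log2 -0.51 ± 0.17, SE, limma adjusted p = 0.0383). Both calls were close to the threshold. The rise in control did not pass without innervated control 1 (0.46, limma adjusted p = 0.0686), without denervated control 1 (0.44, limma adjusted p = 0.0797) or with the log2 ratio of the 5' to the 3' Gapdh probe sets, a sign of RNA quality, in the model (0.32, limma adjusted p = 0.236). The fall in MCK::cre muscle did not pass without either innervated MCK::cre array (-0.58 and -0.45, limma adjusted p = 0.0886 and 0.191) or without denervated MCK::cre 2 or 3 (-0.43 and -0.50, limma adjusted p = 0.13 and 0.0982), with no filter on low values (limma adjusted p = 0.0501), with a robust fit without variance trend (limma adjusted p = 0.0604), with median scaling (-0.21, limma adjusted p = 0.447) or with spike-in centring (-0.03, limma adjusted p = 0.934).

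Cdh2, which encodes N-cadherin, showed a like pattern at low signal. Its representative probe set (1418815_at) read 567, 506 and 507 on innervated and 653, 1021 and 1111 on denervated control arrays, and 747 and 835 on innervated and 511, 572 and 484 on denervated MCK::cre arrays. Again denervated arrays lay above innervated ones in control and below them in MCK::cre muscle. The rise in control was 1.70-fold (log2 0.77 ± 0.25, SE, limma adjusted p = 0.0334), and the change in MCK::cre muscle, -0.59 ± 0.28 (log2, SE), did not pass (limma adjusted p = 0.139). The call in control was lost without denervated control 3 (0.62, limma adjusted p = 0.129), denervated control 2 (0.68, limma adjusted p = 0.111), innervated control 1 (0.82, limma adjusted p = 0.0537), innervated control 2 (0.74, limma adjusted p = 0.0695) or innervated control 3 (0.74, limma adjusted p = 0.0781). It was also lost with the replicate block in the 6 control arrays (0.77, limma adjusted p = 0.0599), with only the control groups in the fit (limma adjusted p = 0.0736), with no filter on low values (limma adjusted p = 0.0779) and with the Gapdh ratio in the model (0.91, limma adjusted p = 0.0662). The second probe set (1449244_at) changed by 0.71 in control (limma adjusted p = 0.0992) and -0.81 in MCK::cre muscle (limma adjusted p = 0.0943). Its denervated MCK::cre mean of 351 lay within the range of background.

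**Figure D3:**
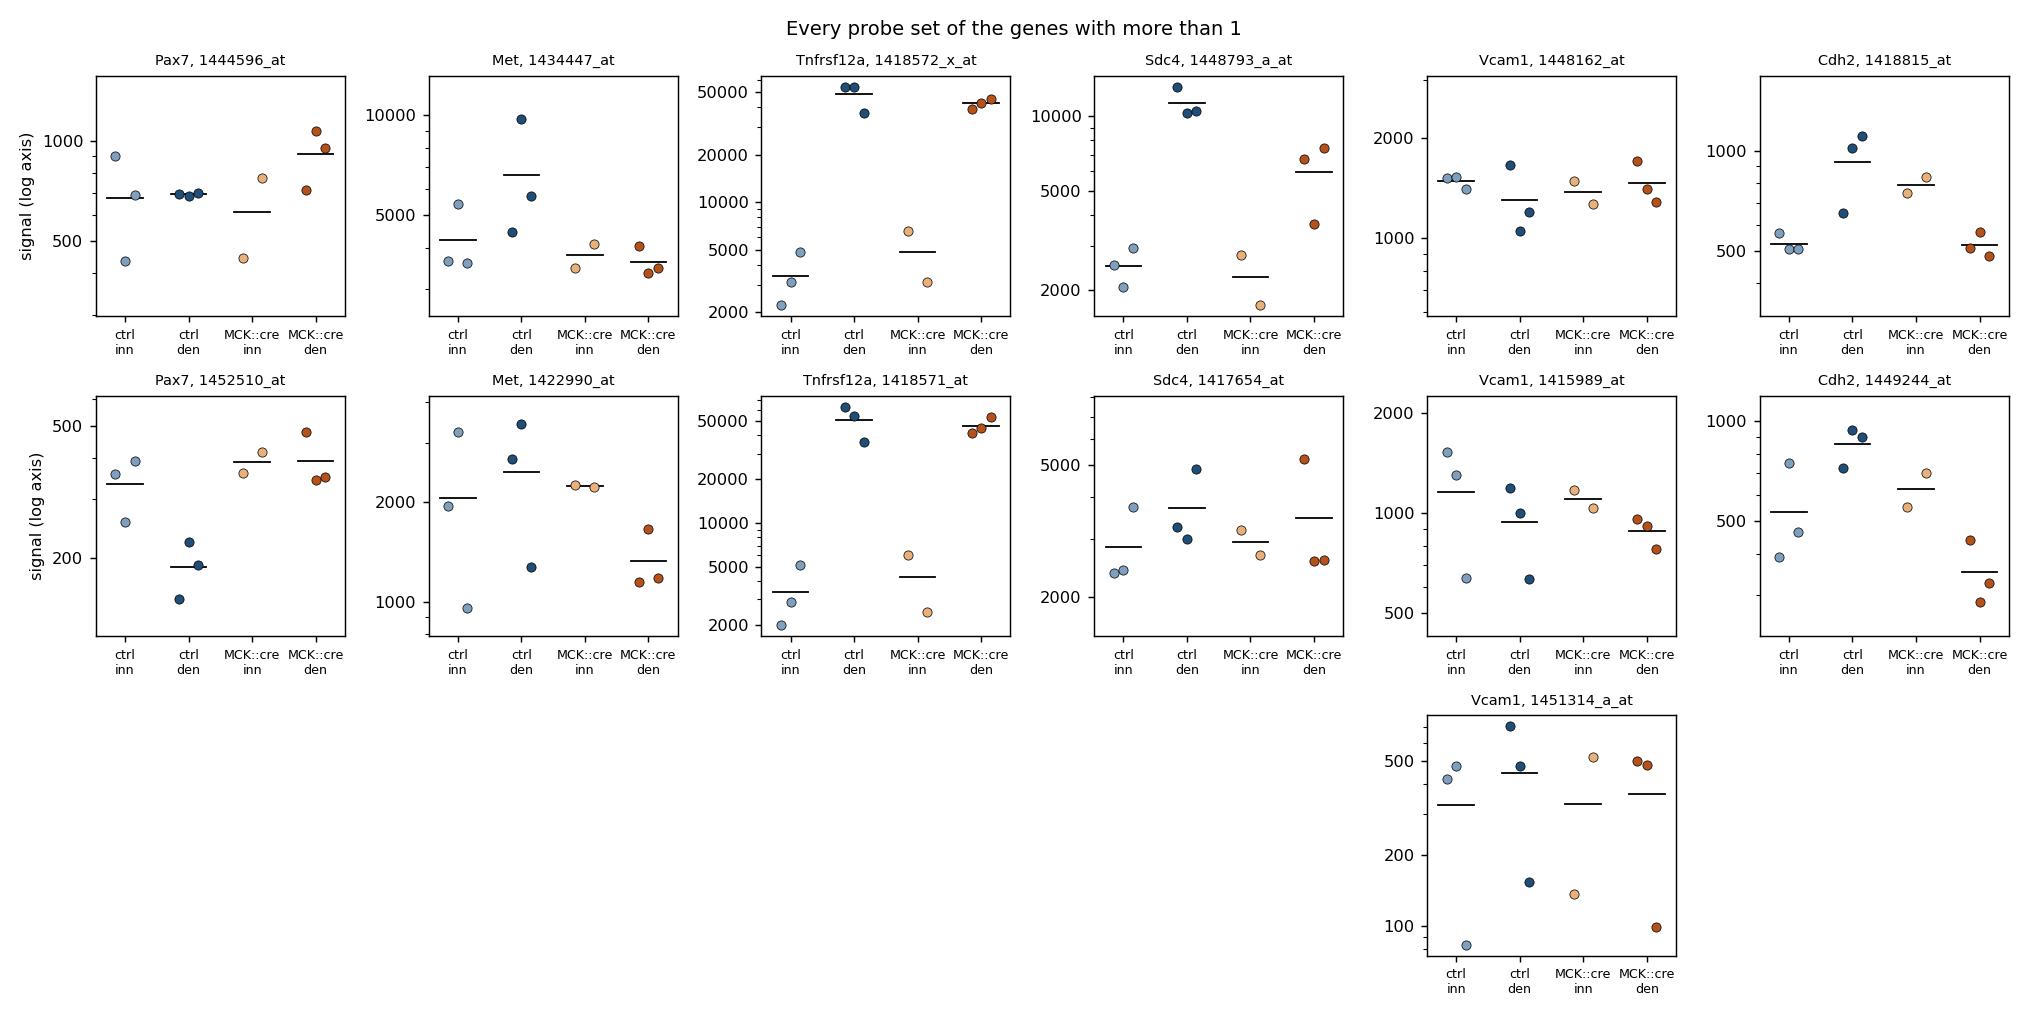
Signal (intensity, logarithmic axis) of every probe set of the 6 genes with more than 1, on all 11 arrays by group, with group means as bars and the representative probe set in the top row. Both Tnfrsf12a probe sets rise with denervation, while of the Sdc4 probe sets 1448793_a_at separates denervated from innervated control arrays and 1417654_at does not.

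Mymk, the gene of the fusion protein myomaker, rose with denervation in control muscle and did not pass in MCK::cre muscle. It read 236, 231 and 321 on innervated and 3067, 1482 and 1141 on denervated control arrays. On MCK::cre arrays it read 251 and 301 innervated and 338, 107 and 87.3 denervated. The 3 denervated control arrays stood above all others, and the denervated MCK::cre arrays overlapped with the innervated ones. The group means were 263 ± 50.1 (SD, n = 3), 1897 ± 1028 (SD, n = 3), 276 ± 35.2 (SD, n = 2) and 178 ± 140 (SD, n = 3), and all but that of denervated control muscle lay within the range of background. Mymk passed the filter on low values through the 3 denervated control arrays alone, so it had to be higher there. Its p-values are therefore not independent of how it was chosen. Set against the highest background signal of 440 on each dimmer array, Mymk was at least 3.93-fold higher in denervated than in innervated control muscle. As 440 replaces every dimmer array, this bound describes the denervated control arrays alone. The fitted change was 2.66 ± 0.50 (log2, SE, limma adjusted p = 0.00128), and the change in MCK::cre muscle was -0.82 (95% interval -2.02 to 0.38, limma adjusted p = 0.302). Because the dimmer groups are at background, the fitted size depends on the pseudocount: with a larger one it was 1.96 (log2, limma adjusted p = 0.000277). With the Gapdh ratio in the model it was 1.77 (limma adjusted p = 0.0271). Without denervated control 3 it was 2.96 (limma adjusted p = 0.00224).

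Between genotypes in denervated muscle, 0 of the 10 genes were higher and 2 lower in MCK::cre, Mymk and Itga7, where 1.05% and 1.14% of all tested genes were (limma). Mymk, which entered the test through the denervated control arrays alone, was at least 3.93-fold lower against the highest background signal (fitted log2 -3.40 ± 0.50, SE, limma adjusted p = 0.00315). That bound is the same as for denervation of control muscle, from the same arrays, and is not a second result. Itga7 was 2.45-fold lower (log2 -1.29 ± 0.15, SE, limma adjusted p = 0.00072). Without denervated control 3 these were -3.70 (limma adjusted p = 0.00661) and -1.29 (limma adjusted p = 0.00323). The Mymk difference was -2.26 with the larger pseudocount (limma adjusted p = 0.00154), and -2.41 with the Gapdh 5' to 3' ratio in the model, where it did not pass (limma adjusted p = 0.0949). That ratio (log2) was 0.18 to 0.26 on denervated control and 0.22 to 0.31 on denervated MCK::cre arrays. On their representative probe sets, Sdc4, Met and Cdh2 were also lower on all 3 denervated MCK::cre arrays than on all 3 denervated control arrays, by -0.98 ± 0.26, -0.80 ± 0.25 and -0.78 ± 0.25 (log2, SE), and did not pass (limma adjusted p = 0.0882, 0.181 and 0.186). The second probe sets of Sdc4 and Met differed by -0.15 and -0.79 with overlapping arrays, and that of Cdh2 by -1.26 without overlap (limma adjusted p = 0.911, 0.5 and 0.0574). On that Cdh2 probe set the denervated MCK::cre mean lay within the range of background, so the size of its difference is uncertain. In all, 5 of the 10 genes lay lower without overlap, where 10.4% of all genes did, and 1, Pax7, lay higher, where 12.6% did. The median difference of the 10 genes was -0.48 and that of all genes 0.01. With spike-in centring Sdc4, Met and Cdh2 passed too (-1.35, -1.17 and -1.15, limma adjusted p = 0.016, 0.0138 and 0.0382), with the median of all genes at -0.36.

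In innervated muscle 0 of the 10 genes passed between genotypes, as did 0% of all genes (limma), and 0 of the 10 had an unadjusted p under 0.05. The estimates ran from -0.25 for Itga7 (95% interval -0.62 to 0.11) to 0.57 for Cdh2 (-0.03 to 1.17), and only 2 innervated MCK::cre arrays bear on them.

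The interaction, the denervation change in MCK::cre minus that in control muscle, passed for 0 of the 10 genes and for 0.262% of all tested genes (limma). The share of all genes with an unadjusted p under 0.05 is not given here, and 3 of the 10 had one. These were Mymk (-3.48 ± 0.75, log2, SE, limma adjusted p = 0.103), Itga7 (-1.04 ± 0.23, limma adjusted p = 0.108) and Cdh2 (-1.35 ± 0.37, limma adjusted p = 0.246). The 95% intervals were -5.09 to -1.87, -1.52 to -0.55 and -2.15 to -0.55. Mymk entered the test through the denervated control arrays alone, which are part of this contrast, and its other group means lay within the range of background. With the larger pseudocount its interaction was -2.30 (limma adjusted p = 0.0604). Without denervated MCK::cre 1, the array with the highest Mymk signal of its group, the Mymk interaction passed (-4.03, limma adjusted p = 0.0383). All Mymk signals of that group lay within the range of background. Of the genes that rose in both genotypes, Tnfrsf12a had an interaction of -0.66 (95% interval -1.60 to 0.28), Sdc4 of -0.80 (-1.64 to 0.03) and Cdh15 of 0.31 (-0.22 to 0.84). For Cd34 it was -0.07 (-0.77 to 0.63).

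**Figure D4:**
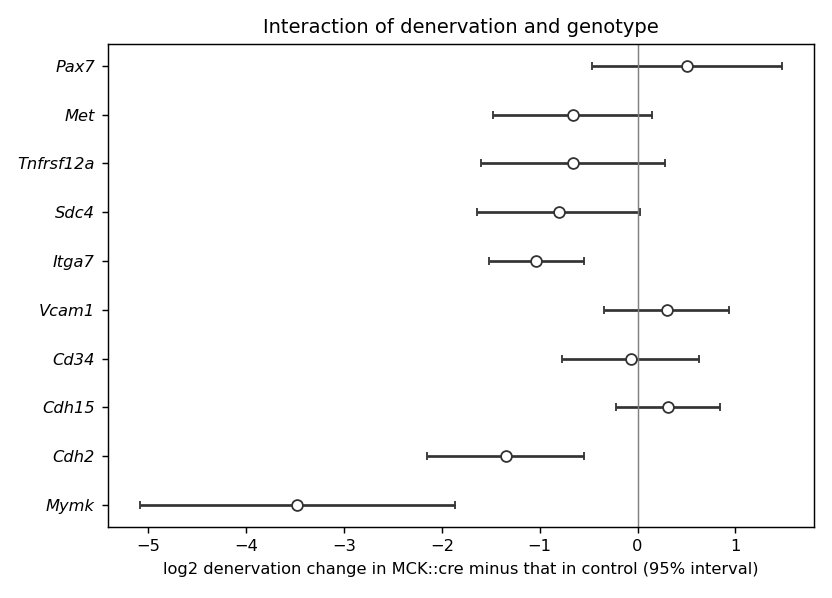
Denervation change in MCK::cre minus that in control muscle (log2, limma) with 95% intervals for the 10 genes; open points did not pass an adjusted p of 0.05. The intervals of Mymk (-5.09 to -1.87), Itga7 (-1.52 to -0.55) and Cdh2 (-2.15 to -0.55) lie below 0, and that of Cd34 (-0.77 to 0.63) spans it. Mymk passed the filter on low values through the denervated control arrays alone.

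Other genes of fusion were read from a list of myoblast fusion genes, of which 29 were tested. In control muscle 8 rose, 4 fell and 17 did not pass (median 0.21), against 18.0% of all genes that rose and 16.4% that fell. In MCK::cre muscle 6 rose, 2 fell and 21 did not pass (median 0.02), against 16.7% and 13.8%. The falls in control and the rises in MCK::cre muscle are near the share of all genes. Mymx, the gene of myomixer, read 32.8, 377 and 178 on innervated and 977, 601 and 929 on denervated control arrays, and 37.9 and 250 on innervated and 27.8, 46.3 and 284 on denervated MCK::cre arrays. The 3 denervated control arrays were above all others, and Mymx, like Mymk, passed the filter on low values through those 3 arrays alone, so it had to be higher there. The means of the other groups lay within the range of background. Its change in control (2.43 ± 0.96, log2, SE) and its genotype difference in denervated muscle (-3.16 ± 0.96) did not pass (limma adjusted p = 0.0758 and 0.161). Against the highest background signal, Mymx in denervated control muscle was at least 1.86-fold higher in either comparison. That bound comes from the same denervated control arrays in both and is 1 result. The change in control was 1.59 without innervated control 1 and 3.10 without innervated control 2 (limma adjusted p = 0.241 and 0.0413), and the genotype difference was -2.61 without denervated MCK::cre 1. The larger pseudocount gave 1.33 and -1.59, and both passed (limma adjusted p = 0.0109 and 0.0329). Both also passed with spike-in centring (3.21 and -3.56, limma adjusted p = 0.00662 and 0.0343) and with only the compared groups in the fit (limma adjusted p = 0.0301 and 0.041). The replicate block in the 6 control arrays gave an adjusted p of 0.013 by limma for the change in control. Cd82, a tetraspanin of satellite cells and other cells, read 2504 to 3024 on innervated control, 29246 to 37079 on denervated control, 2717 and 2842 on innervated and 10463 to 12414 on denervated MCK::cre arrays. It rose 11.9-fold in control and 4.11-fold in MCK::cre muscle (limma adjusted p = 5.18e-09 and 1.43e-06), and was 2.80-fold lower in denervated MCK::cre than in denervated control muscle (log2 -1.49 ± 0.14, SE, limma adjusted p = 0.000165). Its interaction passed (-1.54 ± 0.21, log2, SE, limma adjusted p = 0.0122), but not without innervated MCK::cre 2 (-1.57, limma adjusted p = 0.0541), with the robust fit (limma adjusted p = 0.0586) or with the Gapdh ratio in the model (limma adjusted p = 0.0516). Arf6, a small GTPase, rose 3.33-fold and Dysf, a membrane repair protein, 2.32-fold in control muscle (limma adjusted p = 1.17e-05 and 0.000179).

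A list of satellite cell identity and quiescence genes had 22 tested members, of which 7 rose and 3 fell in control muscle (median -0.04), and 5 rose and 4 fell in MCK::cre muscle (median 0.19). Of all genes 18.0% rose and 16.4% fell in control, and 16.7% and 13.8% in MCK::cre muscle. The myogenic factor Myog rose 66.2-fold and 57.8-fold, and the adhesion molecule Ncam1 6.75-fold and 3.59-fold (limma adjusted p at or below 0.000159). Denervated fibres are known to express both genes. The cell cycle inhibitor Cdkn1c was 1.96-fold lower in control and 2.03-fold lower in MCK::cre muscle (limma adjusted p = 0.000224 and 0.00046), and the caveolar protein gene Cav1 1.69-fold and 1.80-fold lower (limma adjusted p = 0.000159 and 0.000204). With spike-in centring none of these 4 passed: Cdkn1c changed by -0.15 and -0.54 and Cav1 by 0.07 and -0.37 (limma adjusted p = 0.532, 0.0822, 0.768 and 0.189). In denervated muscle 1 of the 22 differed between genotypes, where 1.05% of all genes were higher and 1.14% lower in MCK::cre. This was Hes1, a target of Notch signalling, which read 1282 to 2570 on control and 3878 to 7132 on MCK::cre arrays. It was 2.72-fold higher in MCK::cre (log2 1.44 ± 0.30, SE, limma adjusted p = 0.0245). This call was lost with spike-in centring (limma adjusted p = 0.0651), the robust fit (0.0849) or the Gapdh ratio (0.399), and without denervated control 1 (1.20, limma adjusted p = 0.125), denervated control 3 (1.43, limma adjusted p = 0.0609), denervated MCK::cre 1 (1.53, limma adjusted p = 0.0601) or denervated MCK::cre 2 (1.18, limma adjusted p = 0.127).

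A list of ligands and receptors of the 10 proteins, which also holds intracellular partners such as Traf2, had 13 tested members. In control muscle 1 rose and 7 fell, and in MCK::cre muscle 2 rose and 6 fell (of all genes 16.4% and 13.8% fell), with medians of -0.67 and -0.35. Fgf6, a fibroblast growth factor of muscle, passed the filter through the 5 innervated arrays alone and its denervated means lay within the range of background. Against the highest background signal it was at least 4.83-fold lower in control and at least 5.14-fold lower in MCK::cre muscle (limma adjusted p = 5.67e-06 and 1.6e-05). Itga4, the integrin chain that binds Vcam1, was 3.22-fold lower in control muscle (limma adjusted p = 0.00127), Lamb2, a laminin chain, 2.50-fold lower (limma adjusted p = 1.12e-05), and Traf2, an adaptor of the receptors of the Tnfrsf12a family, rose 2.89-fold (limma adjusted p = 0.00012). Among 20 adhesion partners and relatives 3 rose and 2 fell in control muscle, and 4 rose and 1 fell in MCK::cre muscle. Of all genes 18.0% rose and 16.4% fell in control and 16.7% and 13.8% in MCK::cre muscle, so these counts are near or below the background. Jup and Ctnna1, cytoplasmic partners of cadherins, rose 3.63-fold and 1.80-fold in control muscle (limma adjusted p = 6.28e-06 and 0.00104), and Sdc2, another syndecan, was 1.75-fold lower (limma adjusted p = 0.00551; 0.02 with spike-in centring). Itgb1, the beta chain that pairs with Itga7, rose 1.80-fold in control muscle (limma adjusted p = 0.0119). That call was lost without innervated control 3 (0.64, limma adjusted p = 0.051), denervated control 1 (0.71, limma adjusted p = 0.0575) or denervated control 2 (0.76, limma adjusted p = 0.0528). None of these 2 lists' genes passed between genotypes in denervated muscle (limma, 0 of 13 and 0 of 20). Of all genes 1.05% were higher and 1.14% lower there in MCK::cre.

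Genes of cell division and of leukocytes were higher in denervated muscle. Of 14 proliferation genes, 11 rose in control and 10 in MCK::cre muscle (medians 1.23 and 1.42), where 18.0% and 16.7% of all genes rose. Their summed signal was 20101 to 24111 on innervated and 45301 to 49290 on denervated control arrays, and 20128 to 23702 and 36434 to 39798 in MCK::cre muscle. Mki67, a marker of dividing cells, rose 3.11-fold in control muscle (limma adjusted p = 0.00543). In MCK::cre muscle, where its innervated mean lay within the range of background, it was at least 4.86-fold higher in denervated muscle (limma adjusted p = 4.5e-05). The fitted change of 3.62 (log2) there was 2.71 without innervated MCK::cre 1 and 4.54 without innervated MCK::cre 2. Rrm2, a subunit of ribonucleotide reductase, rose 12.3-fold in control muscle (limma adjusted p = 5.3e-08) and was 7.83-fold lower in denervated MCK::cre than in denervated control muscle (limma adjusted p = 1.74e-05). It was the only 1 of the 14 to pass between genotypes there, and 13 did not, where 1.05% of all genes were higher and 1.14% lower. The median difference of the 14 was 0.06 and that of Mki67 0.13 (log2). The sums above include Rrm2 and do not show that the list as a whole was lower in denervated MCK::cre muscle. Of 15 macrophage and leukocyte markers, 9 rose in control and 12 in MCK::cre muscle, with sums of 34179 to 45550 and 70678 to 92285 in control, and 28520 to 33729 and 85713 to 109149 in MCK::cre muscle. Cd68, a lysosomal protein of macrophages, rose 14.8-fold in control and 29.2-fold in MCK::cre muscle (limma adjusted p = 2.36e-08 and 1.52e-08). The part of these cells in the rises of Tnfrsf12a, Sdc4 and Cdh15 was not tested. Of 8 Schwann cell markers, the glia that also carry Cdh2, 2 rose and 2 fell in control muscle and 3 rose and 3 fell in MCK::cre muscle (medians 0.12 and -0.3). Of all genes 18.0% rose and 16.4% fell in control, and 16.7% and 13.8% in MCK::cre muscle, so the counts in control are near those shares. The sums of the Schwann cell markers were 25141 to 29002 and 14703 to 16173 in control, and 35021 to 36952 and 17325 to 21413 in MCK::cre muscle. Their part in the values of Cdh2 was not tested. All 12 muscle fibre markers were tested, and 9 fell in control and 11 in MCK::cre muscle (medians -0.44 and -0.56), where 16.4% and 13.8% of all genes fell.

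The genes most like the 10 in log2 signal over the 11 arrays follow, as a description. For Tnfrsf12a, Sdc4, Cdh15 and Cd34 the split between innervated and denervated arrays carries much of each correlation. The other members do not show that split in the same direction in both genotypes. Each gene was picked as most correlated among all tested genes on only 11 arrays, so its r is high partly through the picking. Mymk was most like Cyfip2 and the embryonic myosin gene Myh3 (Pearson r = 0.956 and 0.951), and Itga7 most like Rbm24 and the intermediate filament gene Nes (0.937 and 0.934). Tnfrsf12a was most like the tubulin gene Tubb4b and Atp13a3 (0.991 and 0.986), Cdh15 like Serpinb1a and Cenpj (0.984 and 0.977), and Sdc4 like 2310057M21Rik and Ssr1 (0.974 and 0.973). Cd34 was most like Tnfaip1 and the collagen gene Col6a2 (0.974 and 0.973). Pax7 was closest to Alox5 and Thap7 (0.963 and 0.942), Met to Vps4b and Wsb1 (0.897 and 0.886), Vcam1 to AA388235 and Rbbp5 (0.901 and 0.873) and Cdh2 to Rexo4 and Dnase1l3 (0.879 and 0.861).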

How the data were processed

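Each array file holds deposited intensity values, 1 signal per probe set, not logged. Arrays had been brought to 1 level by the authors, since each has a 2% trimmed mean of 2500. The software was not given in the sources used here. Signals were used as log2(value + 16). Probe sets above their array's median on at least 2 of 11 arrays were kept, without the 64 Affymetrix controls, which left 26170 probe sets and 12214 genes. Symbols came from the supplied platform annotation, and all 10 members matched the reference gene table. Group means were fitted over the 11 arrays together by limma 3.58.1 in R 4.3.3 (eBayes with trend), and p-values were adjusted (Benjamini-Hochberg, threshold 0.05) over those 26170. The pipeline was tested on simulated data. The members and lists were chosen with earlier results of these data known; from each list up to 4 genes of smallest p were eligible to be named, not all are, and each member's 2 most correlated genes are given. Deviations from group means correlated between same-numbered innervated and denervated control arrays (Pearson r over probe sets 0.11, 0.22 and 0.30) and at -0.18 to 0.05 in other pairs of groups. The labels do not say what the numbers mark. All values come from the fit without pairing, and a replicate block in the control arrays is an alternative whose value is given where it changes a call. Alternatives varied the pseudocount, filter, scaling, samples, variance model, covariates and probe set choice.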

Additional observations from a re-analysis of the deposited data

Results flagged for a closer look

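Members whose arrays moved in opposite directions in the 2 genotypes are Itga7 and Cdh2. Every denervated array was above every innervated array in control muscle and below every innervated array in MCK::cre muscle. The share of all genes that did so is not given here, and only 2 innervated MCK::cre arrays bear on it. With spike-in centring the Itga7 change in MCK::cre muscle was -0.03 (log2). That of Cdh2 ranged from -0.66 to -0.11 among the alternatives. The denervation change in MCK::cre minus that in control was -1.04 ± 0.23 (log2, SE, limma adjusted p = 0.108) for Itga7 and -1.35 ± 0.37 (limma adjusted p = 0.246) for Cdh2, so the test of the difference did not pass for either.

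Of the other genes named, Cd82, Ptprc and Rrm2 had an interaction that passed. For the tetraspanin gene Cd82 it was -1.54 ± 0.21 (log2, SE, limma adjusted p = 0.0122). For Rrm2 it was -2.42 ± 0.30 (limma adjusted p = 0.00605), with a mean signal of 10451 in denervated control and 1322 in denervated MCK::cre muscle. For Ptprc, the leukocyte surface protein CD45, it was 1.76 ± 0.29 (limma adjusted p = 0.0259), with a mean signal of 2852 in innervated control and 990 in innervated MCK::cre muscle, and 2781 and 3369 in denervated muscle. The Ptprc call was lost without any of 6 of the 11 arrays in turn: innervated control 1 or 3, denervated control 2, innervated MCK::cre 1 or 2, and denervated MCK::cre 2 (1.55 to 1.81, limma adjusted p = 0.0522 to 0.0987). It was also lost with spike-in centring (1.42, limma adjusted p = 0.135), the robust fit (limma adjusted p = 0.0848), the Gapdh ratio in the model (limma adjusted p = 0.0828) and the replicate block (limma adjusted p = 0.0609).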

How the results depend on the processing

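The 7 members called with denervation of control muscle stayed within 5 to 9 under the 24 alternatives, and within 5 to 7 when each array was left out. The 5 called in MCK::cre muscle became 3 with median scaling and 3 to 5 with an array left out, with 3 without innervated MCK::cre 1 or 2. The 2 called between genotypes in denervated muscle became 1 with the filter on 6 of 11 arrays, which removes Mymk, 5 with spike-in centring and 1 with the Gapdh 5' to 3' ratio in the model, and stayed 2 without any array. The interaction count of 0 became 1 without denervated MCK::cre 1 and was 0 without each other array; between genotypes in innervated muscle it was 0 throughout. Leaving out an innervated MCK::cre array leaves 1, which is then assumed to vary like the other groups. With spike-in centring the sign turned in control muscle for Vcam1 (0.60), Ptprc (0.78), Cav1 (0.07), Sdc2 (0.02) and Tie1 (0.05). The replicate block over all arrays gave 7, 4, 3, 0 and 0 members in the 5 comparisons: Itga7 in MCK::cre muscle was lost (-0.51, limma adjusted p = 0.0727) and Sdc4 between genotypes in denervated muscle gained (-0.98, limma adjusted p = 0.0203). The block in the 6 control arrays alone was chosen after seeing the data and gave 7. Over all probe sets, the 478 calls between genotypes in denervated muscle ranged from 101 to 1388 and the 65 of the interaction from 8 to 108; those for denervation in control muscle were 15319 with spike-in centring against 7670, and those in MCK::cre muscle 4337 to 8082 against 6894 with an array left out; between genotypes in innervated muscle at most 12 were called against 0. Signals of Mymk, Mymx and the untested Pax7 probe set lie near background, which limits the size of their changes. The same holds for the dimmest Vcam1 probe set and, in denervated MCK::cre muscle, for the Cdh2 probe set 1449244_at.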
